A study of Mus musculus with 13 samples.

Results

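The ribosome biogenesis and nucleolar factors are 48 mouse genes whose proteins transcribe ribosomal RNA, modify and cut it, and assemble it with ribosomal proteins. They were taken from a list of gene symbols, and each was read from the probe set that carries that symbol and no other. Where a gene had several such probe sets, the brightest over all arrays was used. In this way 47 of the 48 were measured, among 19938 genes with a probe set of their own, and only Noc2l had none.

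The study hybridised RNA to 13 arrays (Affymetrix Mouse Gene 1.0 ST) in 3 groups, all from the small intestine of Apc mutant mice crossed with transgenic mice that express FPs, a term left as the labels give it. Adenomas gave 3 arrays. Normal epithelial cells next to adenomas gave 4 arrays with high FP (FP-high) and 6 with low FP (FP-low). Every animal thus carried the Apc mutation, and no array came from a mouse without it. The labels give no age, no promoter for the transgene and no link between arrays and animals, so p-values measure the spread between these arrays, which may in part be technical. All levels below are log2 array levels, so a difference of 1 is a doubling, and levels of different genes are not compared.

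Ribosomes are built in the nucleolus. RNA polymerase I makes a long precursor RNA, box C/D and box H/ACA particles guide its methylation and pseudouridylation, and a large assembly called the small subunit processome folds and cuts the part that becomes the small subunit. Further factors mature the small and the large subunit and take them to the cytoplasm. In the intestine the pathway is most active in the dividing cells of the crypt, and the transcription factor Myc, a target of Wnt signalling, is known to raise the expression of many of these genes.

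The array of FP-high replicate 1 was unlike the rest. Its levels had an SD of 1.21 over probe sets, against 1.89 to 2.10 on the other 12 arrays, and its median correlation with them was 0.762, against 0.943 to 0.968 for the others. On that array the tested probe sets with a mean level of at least 5 had a median of -1.20 relative to the FP-low mean, while on the other 3 FP-high arrays the same median lay between -0.10 and -0.03. The comparisons with FP-high below are therefore also given without it. All 10 epithelial markers were above the array median on every adenoma and every FP-low array, and 9 of 10 on every FP-high array. Their mean level was 8.14 to 8.88 in adenomas, 6.41 to 8.97 in FP-high and 8.02 to 8.87 in FP-low, with 6.41 on FP-high replicate 1. Xist is transcribed from the inactive X chromosome of females and was looked at after its values were seen. It ranged from 8.88 to 9.71 in adenomas, from 2.65 to 8.64 in FP-high and from 2.34 to 8.74 in FP-low. Its means were 9.19, 4.49 and 3.73 in the same order, so it was high on every adenoma array and low on most others. The labels do not give the sex of the animals. Sex may thus differ between adenomas and both normal groups, and its part in the adenoma comparisons was not tested.

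The promoters of 4 members are shown because Wdr75, Ddx10 and Heatr1 have the smallest p of the small subunit processome in FP-high against FP-low, and because Tsr1 holds the most motifs of all members. Each runs from 250 bases before to 50 bases from the RefSeq gene start, 5′ to 3′ on the gene's own strand, in GRCm38.p6. Motif matches are in capitals. Wdr75 lies on the plus strand at chr1:45794916-45795215, Ddx10 on the minus strand at chr9:53248063-53248362, Heatr1 on the plus strand at chr13:12395125-12395424 and Tsr1 on the plus strand at chr11:74897830-74898129.
Wdr75: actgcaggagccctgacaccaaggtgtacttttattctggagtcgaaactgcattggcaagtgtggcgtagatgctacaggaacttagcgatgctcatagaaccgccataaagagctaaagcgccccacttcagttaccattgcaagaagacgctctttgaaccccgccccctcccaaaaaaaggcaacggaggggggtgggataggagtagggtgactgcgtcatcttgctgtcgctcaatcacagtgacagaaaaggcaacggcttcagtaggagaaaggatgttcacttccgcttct
Ddx10: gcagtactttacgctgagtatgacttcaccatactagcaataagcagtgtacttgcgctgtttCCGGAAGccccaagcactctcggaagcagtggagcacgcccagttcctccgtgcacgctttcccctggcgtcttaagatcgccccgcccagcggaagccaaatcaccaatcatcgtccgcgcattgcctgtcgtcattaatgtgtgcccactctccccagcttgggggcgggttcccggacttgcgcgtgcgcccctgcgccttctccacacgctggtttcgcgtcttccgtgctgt
Heatr1: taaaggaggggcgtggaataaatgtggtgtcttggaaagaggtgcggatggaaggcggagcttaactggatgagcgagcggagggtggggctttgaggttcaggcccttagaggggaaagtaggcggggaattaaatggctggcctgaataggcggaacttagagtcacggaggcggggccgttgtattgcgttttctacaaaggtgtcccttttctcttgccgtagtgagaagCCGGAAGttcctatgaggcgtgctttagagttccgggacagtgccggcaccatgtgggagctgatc
Tsr1: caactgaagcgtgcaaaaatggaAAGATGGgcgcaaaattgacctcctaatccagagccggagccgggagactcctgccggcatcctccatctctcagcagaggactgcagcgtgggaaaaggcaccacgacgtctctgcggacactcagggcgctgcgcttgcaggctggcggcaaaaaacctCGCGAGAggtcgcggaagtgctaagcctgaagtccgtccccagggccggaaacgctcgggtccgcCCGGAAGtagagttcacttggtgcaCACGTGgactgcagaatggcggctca

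A window of this kind was given for 43 of the 48 members. The others, Rrs1, Fbl, Bop1, Rrp12 and Wdr36, are named only. Each window was searched on both strands for CACGTG (the E-box that Myc and Max bind), CCGGAAG (an ETS core), the promoter element TCTCGCG, and then GCATGCG (found in Nrf1 sites) and AAGATGG (found in Yy1 sites), none of which contains another. CCGGAAG was held by 16 members, 37.2% of those with a window, against 13.8% of 15013 protein-coding genes on the array. CACGTG was held by 9 members, or 20.9%, against 9.57% of those genes. TCTCGCG was held by 5 members, or 11.6%, against 4.35%. GCATGCG was held by 3 members, or 6.98%, against 5.48%, and AAGATGG by 2 members, or 4.65%, against 7.29%. Wdr75 held none of the 5 motifs, like 17 other members of the 18 with none. Ddx10 and Heatr1 each held CCGGAAG, and Tsr1 held 4 of the 5. These shares describe the letters in the windows and no binding was measured.

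Most members had lower mean levels in FP-high than in FP-low epithelium, but no member passed the test. Of 47 members, 44 (93.6%) had a lower mean in FP-high. So did 43.7% of all probe sets tested and 77.5% of those with a mean level of at least 5. The median member difference was -0.68, against 0.05 for all probe sets tested and -0.36 for the brighter ones. The lowest differences were those of Fbl, Wdr75 and Gnl3, and only Noc4l, Nop2 and Bop1 had a higher mean in FP-high. Fbl ranked so on its brighter probe set, while its dimmer probe set gave -0.21 ± 0.23. With limma and Benjamini-Hochberg adjustment, 0 of 47 members had an adjusted p under 0.05, as did 0% of all probe sets tested. At an unadjusted p under 0.05, 20 members (42.6%) were lower, against a background of 7.95% of tested probe sets, and 0 were higher, against 4.78%. Among the tested probe sets with a mean level of at least 5, where 43 of the 47 members lie, 18.4% were lower and 1.19% higher by this rule. The arrays of FP-high lay wholly below those of FP-low for 6 members (12.8%), namely Wdr75, Nolc1, Ddx10, Ddx56, Mrto4 and Gar1, against 1.51% of tested probe sets and 3.44% of those with a mean level of at least 5. They lay wholly above for 0 members, against 0.743% of tested probe sets.

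The 4 FP-high arrays differed in how low the members were. Relative to the FP-low mean of each gene, the median member stood at -1.54, -0.62, -0.15 and -0.35 on FP-high replicates 1 to 4, against -0.09 to 0.29 on the FP-low arrays. Members below all 6 FP-low arrays numbered 39, 28, 12 and 19 of 47 on those FP-high arrays (83%, 59.6%, 25.5% and 40.4%). Of tested probe sets, 34.6%, 13.9%, 14.1% and 14.2% were below all FP-low arrays there. Of those with a mean level of at least 5, 70.7%, 22.2%, 15.3% and 27.1% were. Replicate 1 was thus the lowest and replicate 3 the nearest to FP-low. Without FP-high replicate 1 the median member difference was -0.37, against -0.07 for the tested probe sets with a mean level of at least 5. In that fit 40 members were lower, 14 of them at an unadjusted p under 0.05, against 4.84% of tested probe sets and 10.3% of the brighter ones, and 0 were called. Without FP-high replicate 3 the median was -0.86, and Wdr75 (adjusted p = 0.0247) and Ddx10 (adjusted p = 0.0192) passed the limma test. In the fit without replicate 3, 0.581% of tested probe sets were called, and 12.2% were lower at an unadjusted p under 0.05. After quantile normalization the median was -0.45, and at an unadjusted p under 0.05 9 members were lower, against 5.61% of tested probe sets, and 1, Noc4l, was higher, against 3.92%.

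Marker lists of several cell types also differed between FP-high and FP-low, though no marker was called. For scale, 43.7% of all probe sets tested had a lower mean in FP-high, with a median difference of 0.05. Of those with a mean level of at least 5, 77.5% had a lower mean, with a median of -0.36. All 15 measured markers of dividing cells had a lower mean in FP-high than in FP-low, with a median difference of -1.05, and their mean level over the list was 5.57 to 7.01 in FP-high and 7.04 to 7.61 in FP-low. On FP-high replicates 1 to 4 the median marker stood at -1.96, -0.84, -0.50 and -1.09 relative to FP-low, with replicate 1 lowest and replicate 3 highest, as for the members. All 12 enterocyte markers had a higher mean in FP-high (median 0.91), with list means of 6.80 to 10.37 in FP-high and 6.54 to 8.74 in FP-low. All 6 Paneth cell markers had a lower mean in FP-high (median -1.32), with list means of 6.77 to 10.81 in FP-high and 9.72 to 11.13 in FP-low. All 7 stem cell markers were lower (median -0.48), with list means of 4.91 to 6.73 in FP-high and 6.46 to 6.82 in FP-low, and 8 of 9 T lymphocyte markers were higher (median 0.32), with list means of 4.70 to 5.71 in FP-high and 4.11 to 5.09 in FP-low. The medians without FP-high replicate 1 were -0.91 for dividing cells, 1.54 for enterocytes, -0.32 for Paneth cells, -0.20 for stem cells and 0.38 for T lymphocytes. In the other lists, 7 of 10 epithelial markers (median -0.43) and 4 of 6 goblet cell markers (median -0.50) were lower. Their medians without that replicate were -0.001 and 0.43. All 5 endothelial markers (median 0.19), 6 of 8 macrophage and neutrophil markers (0.25) and 5 of 9 stromal markers (0.01) were higher. The part of these cell types in the members' difference was not tested, and in bulk samples fewer cells of a type and less RNA per cell cannot be told apart.

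**Figure D1:**
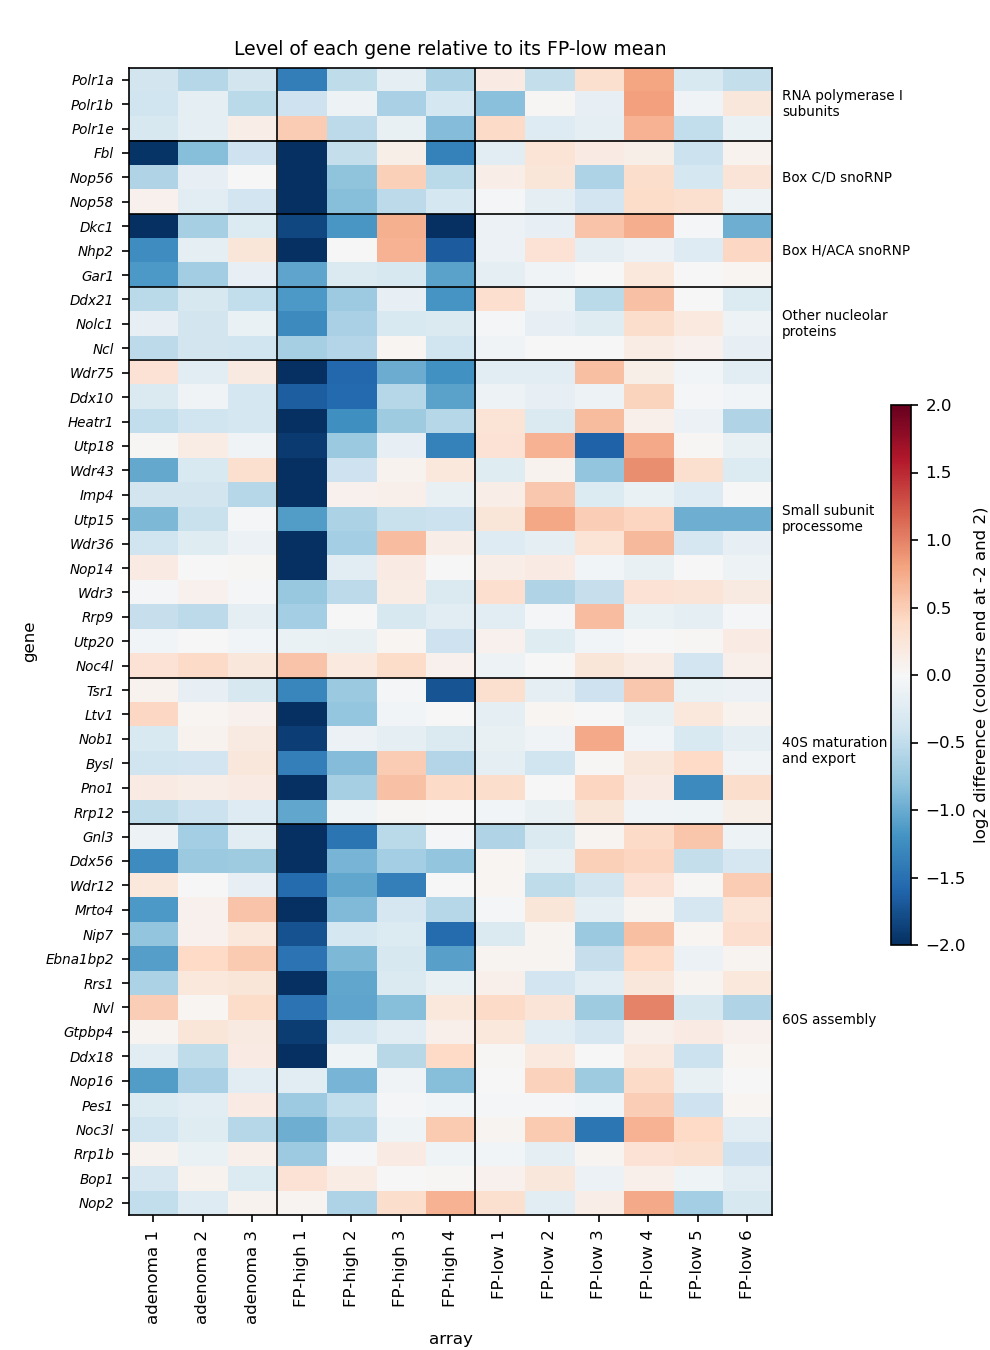
Heat map of the 47 measured members (down the page, by role group) on the 13 arrays (adenoma, FP-high, FP-low from left to right), coloured by the log2 level relative to the mean of the 6 FP-low arrays. FP-high replicate 1 is lowest for most members, with a median of -1.54, while the adenoma arrays have medians of -0.37, -0.20 and -0.06.

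Subunits of RNA polymerase I, the enzyme that transcribes the ribosomal RNA precursor, were represented by Polr1a, Polr1b and Polr1e. Polr1a encodes the largest subunit. Its levels were 5.12, 4.92 and 5.12 in adenomas and 4.11, 4.99, 5.31 and 4.85 in FP-high, while the 6 FP-low arrays had a lowest level of 5.01, a median of 5.41 and a highest of 6.28. The groups overlapped, with FP-high replicate 1 alone far below the rest. FP-high minus FP-low was -0.68 ± 0.28 for Polr1a (SE; limma, adjusted p = 0.389), -0.38 ± 0.25 for Polr1b and -0.26 ± 0.28 for Polr1e, each with 4 and 6 arrays. Leaving out FP-high replicate 1, they were -0.44 ± 0.26 for Polr1a, -0.37 ± 0.28 for Polr1b and -0.51 ± 0.25 for Polr1e, so that the first shrank and the last grew. Adenoma minus FP-low was negative for all 3 subunits, with a median of -0.37, and no subunit had an unadjusted p under 0.05 there.

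The box C/D particle methylates ribosomal RNA, and Nop56, Nop58 and fibrillarin (Fbl), the methyltransferase, are its core proteins. Nop58 had levels of 8.82, 8.53 and 8.36 in adenomas and of 6.46, 7.89, 8.22 and 8.38 in FP-high, against a lowest of 8.35, a median of 8.67 and a highest of 9.11 in FP-low. Of the FP-high arrays 3 lay below every FP-low array and the other just inside their range. For Nop58, FP-high minus FP-low was -1.0 ± 0.32 (SE; limma, adjusted p = 0.318), and -0.57 ± 0.19 without FP-high replicate 1. Nop56 differed by -1.0 ± 0.52, but by -0.29 ± 0.29 without that array. Fbl has a pair of probe sets that did not move together over the 13 arrays (Pearson r = -0.03, given as a description): the brighter gave -1.59 ± 0.71 and the dimmer -0.21 ± 0.23, so the size of its difference depends on the probe set. The brighter gave -0.57 ± 0.35 without FP-high replicate 1.

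The box H/ACA particle turns uridines of ribosomal RNA into pseudouridine, and its members here were dyskerin (Dkc1), the pseudouridine synthase, and its partners Gar1 and Nhp2. Gar1 had levels of 5.40, 5.86 and 6.39 in adenomas and of 5.49, 6.27, 6.24 and 5.49 in FP-high, against a lowest of 6.37, a median of 6.56 and a highest of 6.77 in FP-low. Every FP-high array was below every FP-low array, and 2 of 3 adenomas were too. FP-high minus FP-low was -0.68 ± 0.21 (SE; limma, adjusted p = 0.315), and -0.56 ± 0.22 without FP-high replicate 1. Adenoma minus FP-low was -0.67 ± 0.24 (adjusted p = 0.425 with limma). Dkc1 differed by -1.14 ± 0.54 and Nhp2 by -0.85 ± 0.51 in FP-high against FP-low, or by -0.92 ± 0.59 and -0.32 ± 0.44 without FP-high replicate 1. Dkc1 was the lowest member on FP-high replicate 4 and on adenoma replicate 1, at -2.29 and -2.04 relative to the FP-low mean, and the highest member on FP-high replicate 3, at 0.72.

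The other nucleolar proteins were nucleolin (Ncl), an abundant RNA-binding protein of the nucleolus, Nolc1, a chaperone of the small nucleolar particles, and the RNA helicase Ddx21. Ncl had levels of 10.89, 11.05 and 11.01 in adenomas and of 10.75, 10.83, 11.45 and 11.01 in FP-high, against a lowest of 11.24, a median of 11.42 and a highest of 11.56 in FP-low. All 3 adenomas were below every FP-low array, as were 3 of 4 FP-high arrays. Adenoma minus FP-low was -0.43 ± 0.16 (SE; limma, adjusted p = 0.473) and FP-high minus FP-low was -0.40 ± 0.14 (adjusted p = 0.360), or -0.32 ± 0.13 without FP-high replicate 1. Its FP-high minus FP-low difference changed sign to 0.07 after quantile normalization and to 0.70 when arrays were centred and scaled to a common SD.

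Nolc1 had levels of 6.88, 6.68 and 6.91 in adenomas and of 5.76, 6.39, 6.73 and 6.76 in FP-high, against a lowest of 6.79, a median of 6.97 and a highest of 7.40 in FP-low. Its FP-high arrays lay below all FP-low arrays, 2 of them by a small margin, and FP-high minus FP-low was -0.63 ± 0.20 (SE; limma, adjusted p = 0.318), or -0.41 ± 0.15 without FP-high replicate 1. Ddx21 had levels of 6.73, 6.94 and 6.77 in adenomas and of 6.11, 6.53, 7.09 and 6.09 in FP-high, against a lowest of 6.72, a median of 7.21 and a highest of 7.84 in FP-low. All FP-high arrays but replicate 3 were under the FP-low range, which gave an FP-high minus FP-low difference of -0.81 ± 0.24 (SE; limma, adjusted p = 0.284), or -0.69 ± 0.25 without FP-high replicate 1.

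The small subunit processome had the member with the smallest p in FP-high against FP-low, Wdr75, whose yeast counterpart belongs to a subcomplex that binds the nascent ribosomal RNA. Wdr75 had levels of 8.25, 7.74 and 8.14 in adenomas and of 5.64, 6.39, 6.98 and 6.75 in FP-high, against a lowest of 7.73, a median of 7.83 and a highest of 8.56 in FP-low. All 4 FP-high arrays were below all arrays of both other groups, and the adenomas lay within the FP-low range. FP-high minus FP-low was -1.52 ± 0.25 (SE; 95% interval -2.07 to -0.98; limma, adjusted p = 0.118) and -1.26 ± 0.20 without FP-high replicate 1. Its adjusted p ran from 0.0247 to 0.357 across the alternatives.

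Ddx10, an RNA helicase whose yeast counterpart acts on the U3 particle, had levels of 7.28, 7.49 and 7.21 in adenomas and of 5.91, 6.01, 7.0 and 6.5 in FP-high, against a lowest of 7.40, a median of 7.49 and a highest of 8.02 in FP-low. The FP-high arrays were again below all others. The FP-high minus FP-low difference was -1.21 ± 0.21 (SE; limma, adjusted p = 0.122) and -1.06 ± 0.20 without FP-high replicate 1. Its adjusted p ran from 0.0192 to 0.437 across the alternatives.

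Heatr1, a scaffold of the same early assembly that also bears on transcription by RNA polymerase I, had levels of 6.49, 6.59 and 6.64 in adenomas and of 4.73, 5.76, 6.28 and 6.42 in FP-high, against a lowest of 6.39, a median of 6.98 and a highest of 7.63 in FP-low. FP-high replicate 4 reached into the FP-low range, and the adenomas lay at its lower end. Its FP-high minus FP-low difference was -1.19 ± 0.31 (SE; limma, adjusted p = 0.237) and -0.84 ± 0.24 without FP-high replicate 1. Rrp9, a protein of the U3 particle, had levels of 4.51, 4.44 and 4.78 in adenomas and of 4.30, 4.96, 4.65 and 4.75 in FP-high, against a lowest of 4.74, a median of 4.88 and a highest of 5.59 in FP-low. Its groups overlapped, with 2 of 3 adenomas under the FP-low range, and adenoma minus FP-low was -0.39 ± 0.20 (SE; limma, adjusted p = 0.730).

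Of the 13 processome members, 12 had a lower mean in FP-high than in FP-low, with differences from -1.52 to 0.31 and a median of -0.66. Of the 13, 4 had an unadjusted p under 0.05. Among tested probe sets with a mean level of at least 5, 77.5% were lower, and 18.4% were lower at such a p. The processome median was -0.19 without FP-high replicate 1, with 10 lower and 3 at such a p, against 10.3% of the brighter probe sets. The fourth in the full fit was Utp18, at -1.04 ± 0.43, or -0.75 ± 0.44 without that array, where its unadjusted p was no longer under 0.05. Noc4l was the exception, at 0.31 ± 0.15 (SE; limma, adjusted p = 0.392), or 0.22 ± 0.14 without that array.

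The factors that mature and export the small subunit gave 6 members: Tsr1, Ltv1, Bysl, Pno1, the exporter Rrp12 and Nob1, the nuclease that makes the last cut of the small-subunit RNA. Tsr1 had levels of 7.34, 7.11 and 6.94 in adenomas and of 5.96, 6.54, 7.25 and 5.55 in FP-high, against a lowest of 6.85, a median of 7.15 and a highest of 7.82 in FP-low. FP-high replicate 3 lay inside the FP-low range and the other 3 below it, and FP-high minus FP-low was -0.95 ± 0.29 (SE; limma, adjusted p = 0.297), or -0.83 ± 0.31 without FP-high replicate 1. Rrp12 had levels of 4.14, 4.23 and 4.39 in adenomas and of 3.62, 4.57, 4.67 and 4.64 in FP-high, against a lowest of 4.51, a median of 4.59 and a highest of 4.89 in FP-low. All 3 adenomas were below all FP-low arrays, with adenoma minus FP-low at -0.40 ± 0.21 (SE; limma, adjusted p = 0.761), while only replicate 1 of FP-high was. All 6 members had a lower mean in FP-high than in FP-low, with a median of -0.60 and 2 at an unadjusted p under 0.05, Tsr1 and Ltv1 (-0.83 ± 0.38). Among tested probe sets with a mean level of at least 5, 77.5% were lower, and 18.4% were lower at such a p. Leaving out FP-high replicate 1 gave a median of -0.24 over the 6 and -0.28 ± 0.17 for Ltv1. Tsr1 alone then had an unadjusted p under 0.05, and 10.3% of the brighter probe sets were lower at such a p.

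Large-subunit assembly gave 16 measured members. Wdr12, which with Pes1 and Bop1 forms a complex needed to cut the large-subunit precursor, had levels of 8.04, 7.83 and 7.66 in adenomas and of 6.28, 6.78, 6.45 and 7.82 in FP-high, against a lowest of 7.32, a median of 7.85 and a highest of 8.33 in FP-low. FP-high replicate 4 sat in the middle of the FP-low range and the other 3 below it. On the probe set used, FP-high minus FP-low was -0.99 ± 0.28 (SE; limma, adjusted p = 0.263), or -0.81 ± 0.29 without FP-high replicate 1, and the dimmer of the gene's probe sets gave -1.18 ± 0.24. Its partners differed less, with -0.33 ± 0.19 for Pes1 and 0.11 ± 0.13 for Bop1, or -0.19 ± 0.18 and 0.06 ± 0.13 without FP-high replicate 1; whether the 3 differences are themselves different was not tested.

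Ddx56, an RNA helicase of large-subunit assembly, had levels of 4.66, 5.17 and 5.20 in adenomas and of 3.71, 4.99, 5.24 and 5.12 in FP-high, against a lowest of 5.44, a median of 5.86 and a highest of 6.39 in FP-low. Both the adenoma and the FP-high arrays lay wholly below FP-low. Adenoma minus FP-low was -0.91 ± 0.33 (SE; limma, adjusted p = 0.465) and FP-high minus FP-low was -1.15 ± 0.30 (adjusted p = 0.232), or -0.80 ± 0.22 without FP-high replicate 1. Weighting arrays by their quality brought the adenoma difference past the threshold (adjusted p = 0.0261), the lowest over its alternatives, which reached 1. With that weighting 3.71% of tested probe sets were called in adenoma against FP-low, against 0.551% in the fit reported.

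Nop16, a nucleolar protein of the large-subunit precursor, had levels of 5.05, 5.52 and 5.95 in adenomas and of 5.96, 5.24, 6.10 and 5.32 in FP-high, against a lowest of 5.46, a median of 6.18 and a highest of 6.62 in FP-low. The 3 groups overlapped, and adenoma minus FP-low was -0.66 ± 0.29 (SE; limma, adjusted p = 0.631). Of the 16 members, 14 had a lower mean in FP-high than in FP-low, with a median of -0.69, and 7 had an unadjusted p under 0.05. With FP-high replicate 1 left out, 13 were lower, the median was -0.52 and 5 had such a p. Among tested probe sets with a mean level of at least 5, 77.5% were lower with all arrays. Of those brighter probe sets, 18.4% were lower at such a p, or 10.3% without that replicate. Besides Wdr12 and Ddx56, the third in the order of p was Ebna1bp2, at -0.94 ± 0.31, or -0.77 ± 0.32 without that array. The 2 with a higher mean were Nop2, a methyltransferase of large-subunit RNA, at 0.12 ± 0.29, and Bop1. Gnl3, known as nucleostemin, had the lowest difference of the group, at -1.39 ± 0.52, or -0.68 ± 0.31 without FP-high replicate 1.

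**Figure D2:**
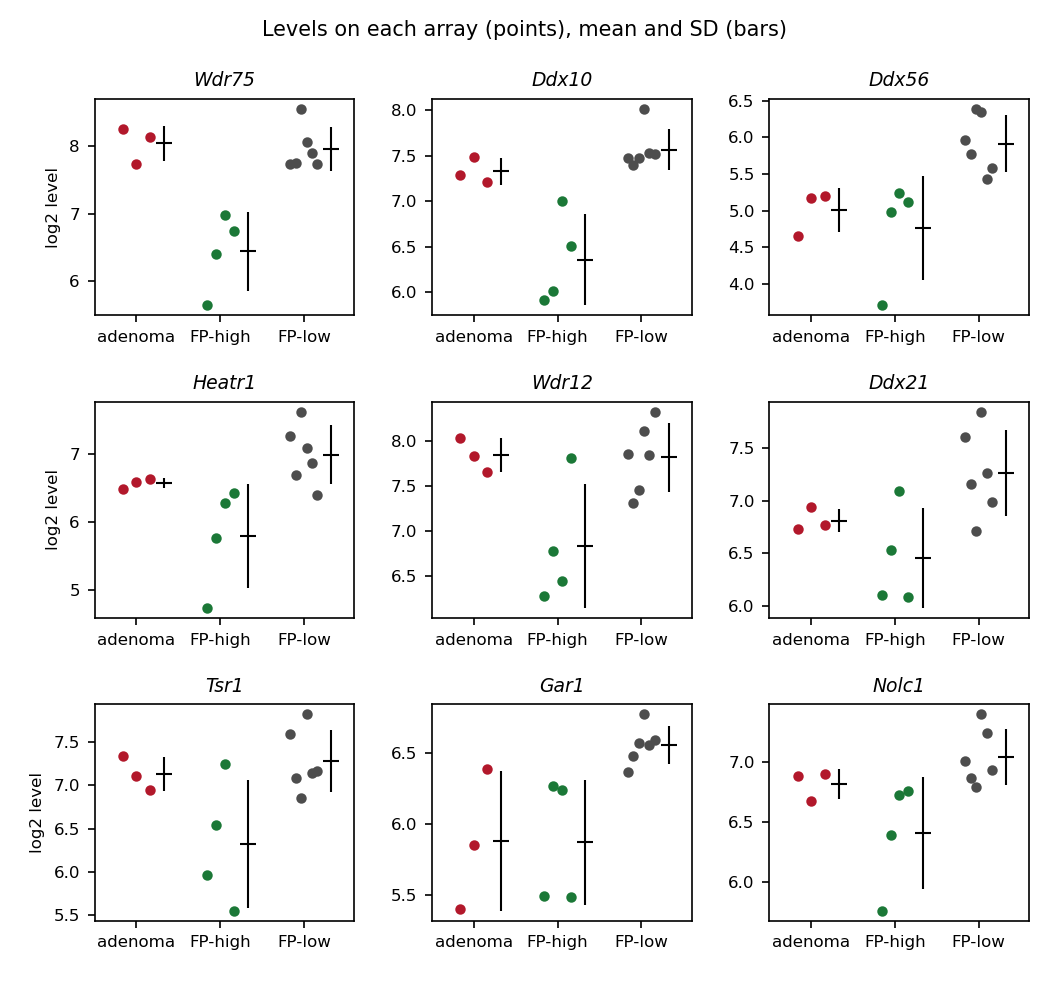
Log2 array levels of 9 members (1 panel each), with adenoma, FP-high and FP-low from left to right, 1 point per array and a bar at each group's mean. For Wdr75 the 4 FP-high arrays lie between 5.64 and 6.98, below all 3 adenomas and all 6 FP-low arrays, while for Ddx21 and Tsr1 FP-high replicate 3 lies among the FP-low arrays.

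No member passed the test between adenomas and FP-low epithelium. Of 47 members, 36 (76.6%) had a lower mean in adenomas. So did 61% of all probe sets tested and 55.9% of those with a mean level of at least 5. The median member difference was -0.19, against -0.06 for all probe sets tested and -0.05 for the brighter ones. The lowest differences were those of Fbl, Dkc1 and Ddx56, and the highest was that of Nvl, at 0.30 ± 0.40. Fbl ranked so on its brighter probe set (-1.08 ± 0.78), and its dimmer probe set gave -0.53 ± 0.25. With limma 0 of 47 members were called, against a background of 0.551% of tested probe sets. At an unadjusted p under 0.05, 4 members (8.51%), Ncl, Nop16, Ddx56 and Gar1, were lower, against 3.2% of tested probe sets, and 0 were higher, against 4.24%. The arrays did not overlap for 4 lower members (8.51%), Ncl, Ddx56, Rrp12 and Imp4, against 5.64% of tested probe sets, and for 0 higher members, against 3.67%. Among the tested probe sets with a mean level of at least 5, 4.85% were lower and 4.8% higher at an unadjusted p under 0.05. In that set the arrays did not overlap for 7.38% on the lower side, near the members' share, and 4.98% on the higher side.

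The 3 adenomas were not alike. The median member stood at -0.37, -0.20 and -0.06 on adenoma replicates 1, 2 and 3 relative to the FP-low mean. Of the 47 members, 20, 11 and 6 were below all FP-low arrays there (42.6%, 23.4% and 12.8%). Of tested probe sets, 21.4%, 18.7% and 19.6% were, and of those with a mean level of at least 5, 27%, 19.2% and 15.5%. Without adenoma replicate 1 the median member difference was -0.10 and 0 members had an unadjusted p under 0.05, while without adenoma replicate 3 the median was -0.32. FP-high replicate 1 enters this fit through the shared estimate of the spread. Without it 8 of 47 members were lower at an unadjusted p under 0.05, against 8.07% of tested probe sets and 12% of the brighter ones. In that fit 0 members were called while 370 of all probe sets tested were, against 129 with that array. With the replicate number as a block the median was -0.11. Of the 15 markers of dividing cells, 14 had a lower mean in adenomas than in FP-low (median -0.43), with list means of 6.87 to 7.29 in adenomas and 7.04 to 7.61 in FP-low. Of 6 Paneth cell markers 5 had a lower mean in adenomas (median -1.72), 4 of them at an unadjusted p under 0.05, with list means of 8.61 to 9.93 in adenomas and 9.72 to 11.13 in FP-low. The remaining Paneth cell marker was higher by 1.76, also at such a p. The markers called in this comparison were Dcn of the stromal list, at 2.46 ± 0.48 (SE; limma, adjusted p = 0.0410), and Ptprc of the lymphocyte list, at 1.0 ± 0.17 (adjusted p = 0.0191). Of 9 stromal markers 5 had a lower mean in adenomas and 4 a higher one (median -0.06). Of 9 T lymphocyte markers 8 had a lower mean (median -0.14), and Ptprc was the only higher one. Stromal list means were 4.42 to 5.15 in adenomas and 4.28 to 4.64 in FP-low. The part of these cell types in the members' difference was not tested.

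Adenomas had higher levels than FP-high epithelium for most members, and Wdr75 passed the test. This comparison uses the arrays of both comparisons above and is not independent of them. Of 47 members, 39 had a higher mean in adenomas and 8 (17%) a lower one. A lower mean was found for 59.6% of all probe sets tested and 29.2% of those with a mean level of at least 5. The median member difference was 0.39, against -0.11 for all probe sets tested and 0.32 for the brighter ones. The called member, Wdr75, was higher by 1.61 ± 0.30 (SE; limma, adjusted p = 0.0261; 3 and 4 arrays), and calls of this direction made up 0.748% of tested probe sets. At an unadjusted p under 0.05, 8 members (17%) were higher, against 8.38% of tested probe sets, and 0 were lower, against 7.36%. Among the tested probe sets with a mean level of at least 5, 16.2% were higher by this rule, close to the members' share. The 8 were Wdr75, Nop58, Wdr12, Ddx10, Tsr1, Ltv1, Ebna1bp2 and Nvl. The adenoma arrays lay wholly above the FP-high arrays for 5 members (10.6%), Wdr75, Heatr1, Utp18, Ddx10 and Ltv1, against 6.74% of tested probe sets and 13.1% of those with a mean level of at least 5. They lay wholly below for 0 members, against 10.4% of tested probe sets.

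The call of Wdr75 depended on the settings. With the replicate number as a block its difference was 1.66 and the adjusted p 0.0876. Quantile normalization gave an adjusted p of 0.0543, an intensity trend with robust spread 0.0675 and a fit of these 2 groups alone 0.215. Leaving out FP-high replicate 2 gave 0.0615, and leaving out adenoma replicates 1, 2 and 3 gave 0.136, 0.0613 and 0.0985. Without FP-high replicate 1 the call held, with a difference of 1.34 ± 0.23 (limma, adjusted p = 0.0198).

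The rest of the members' difference leaned on FP-high replicate 1. Without it the median was 0.08, 29 members were higher and 18 lower. At an unadjusted p under 0.05, 4 were then higher, against 7.35% of tested probe sets, and 2, Rrp12 and Imp4, were lower, against 8.69%. Without FP-high replicate 3 the median was 0.73, with 16 members higher at an unadjusted p under 0.05, against 10.7% of tested probe sets. Of the 16 members, Wdr75 and Ddx10 were called, while 1.2% of tested probe sets were called in either direction. Without FP-high replicate 4, Wdr75 and Wdr12 were called, the last on its brighter probe set (1.34 ± 0.26; limma, adjusted p = 0.0390). Of tested probe sets, 0.803% were called in that fit. The dimmer probe set of Wdr12 gave 0.69 ± 0.30 there (adjusted p = 0.280 in limma), and with all arrays the pair gave 1.01 ± 0.34 and 0.55 ± 0.28. In adenoma against FP-low they gave 0.02 ± 0.31 and -0.63 ± 0.26. After quantile normalization the median was 0.24, with 2 members higher at an unadjusted p under 0.05, against 7.18% of tested probe sets. Of the 15 markers of dividing cells, 13 had a higher mean in adenomas than in FP-high (median 0.69), with list means of 6.87 to 7.29 in adenomas and 5.57 to 7.01 in FP-high. The called marker was Lgr5 of the stem cell list, at 2.0 ± 0.39 (SE; limma, adjusted p = 0.0327), and 9 of 12 enterocyte markers had a lower mean in adenomas (median -0.72). The medians without FP-high replicate 1 were 0.46 for dividing cells, -1.33 for enterocytes and 0.15 for stem cells (0.45 with all arrays). In that fit 0 stem cell markers were called, so the call of Lgr5 was lost. The part of these cell types in the members' difference was not tested.

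**Figure D3:**
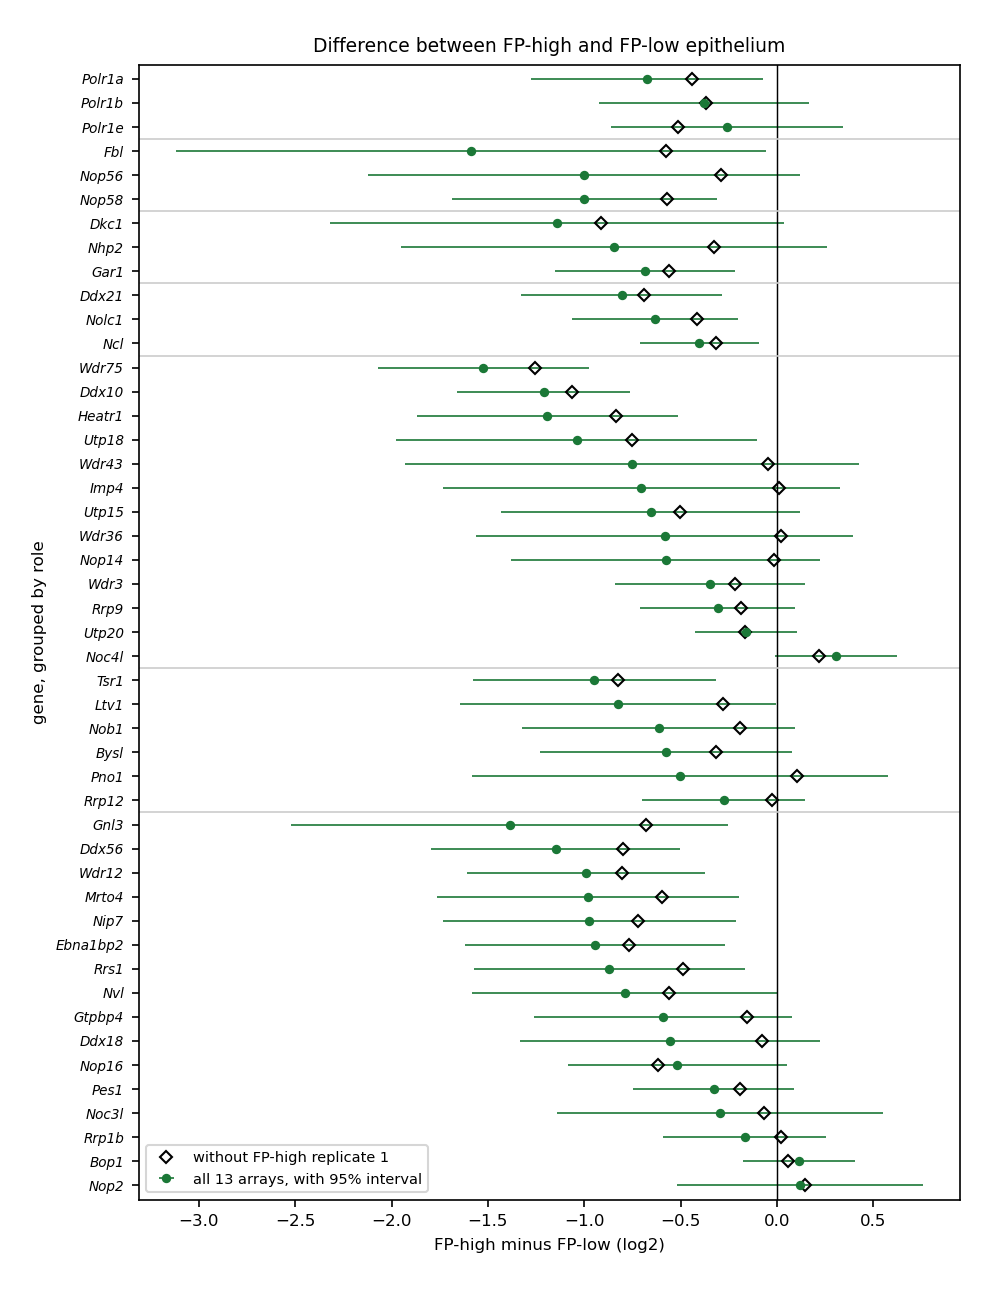
Log2 differences of the 47 members by role group for FP-high minus FP-low. Bars are confidence intervals from limma, for Wdr75 from -2.07 to -0.98. Open diamonds give the differences without FP-high replicate 1. Of 47 members, 44 lie below 0 with all arrays (median -0.68) and 40 without that replicate (median -0.37).

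Other genes of the pathway gave similar values. Of 80 listed, 78 were measured. In FP-high against FP-low 71 of the 78 had a lower mean, with a median of -0.61, and 0 were called. At an unadjusted p under 0.05, 29 of the 78 were lower and 0 higher. By this rule 7.95% of tested probe sets and 18.4% of those with a mean level of at least 5 were lower. With FP-high replicate 1 left out, 66 were lower, with a median of -0.29. Of the 78, 17 were then lower at such a p, against 4.84% of tested probe sets and 10.3% of the brighter ones. The 4 with the smallest p were Rbm28, a nucleolar RNA-binding protein (-0.71 ± 0.13, SE; limma, adjusted p = 0.133), Mdn1, the giant ATPase that strips factors from the large subunit (-0.79 ± 0.17), Riok2, a kinase of small-subunit maturation (-1.27 ± 0.31), and Exosc2, a subunit of the RNA exosome (-1.11 ± 0.29). Rbm28 ranged from 5.93 to 6.17 in adenomas and from 5.28 to 5.65 in FP-high, against 6.04 to 6.45 in FP-low, so that its FP-high arrays lay below all others. The 4 differences without FP-high replicate 1 were -0.69 ± 0.13 for Rbm28, -0.68 ± 0.17 for Mdn1, -0.91 ± 0.23 for Riok2 and -0.89 ± 0.28 for Exosc2.

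In adenoma against FP-low 58 of the 78 had a lower mean (median -0.14), with 3 lower and 2 higher at an unadjusted p under 0.05 and 0 called. Of tested probe sets, 3.2% were lower and 4.24% higher at such a p. Exosc2 was lowest in p, at -1.11 ± 0.32 (SE; limma, adjusted p = 0.220), ahead of Wdr46 (-0.54 ± 0.17), Tex10 (0.70 ± 0.27) and Nat10 (-0.50 ± 0.21). In adenoma against FP-high 62 of the 78 had a higher mean (median 0.51), with 17 higher at an unadjusted p under 0.05 and 0 called. At such a p 8.38% of tested probe sets and 16.2% of those with a mean level of at least 5 were higher. With FP-high replicate 1 left out, 51 were higher, with a median of 0.17, and 12 were higher and 3 lower at such a p. In that fit 7.35% of tested probe sets were higher and 8.69% lower by this rule, and of the brighter ones 12.2% and 8.79%.

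Myc ranged from 7.53 to 8.10 in adenomas and from 5.27 to 7.27 in FP-high, against 7.09 to 7.66 in FP-low. FP-high minus FP-low was -0.99 ± 0.33 (SE; limma, adjusted p = 0.341), and adenoma minus FP-high was 1.25 ± 0.39 (adjusted p = 0.200). Both were nearer to 0 without FP-high replicate 1, at -0.59 ± 0.24 (limma, adjusted p = 0.521) and 0.85 ± 0.27 (adjusted p = 0.168). Adenoma minus FP-low was 0.26 ± 0.37, and the arrays of these groups overlapped. Its partner Max differed by -0.65 ± 0.59 in FP-high against FP-low, or 0.15 ± 0.33 without that array, and Mycn by 0.25 ± 0.16, or 0.15 ± 0.16. Neither gene nor Myc passed the test in any of the 3 comparisons.

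**Figure D4:**
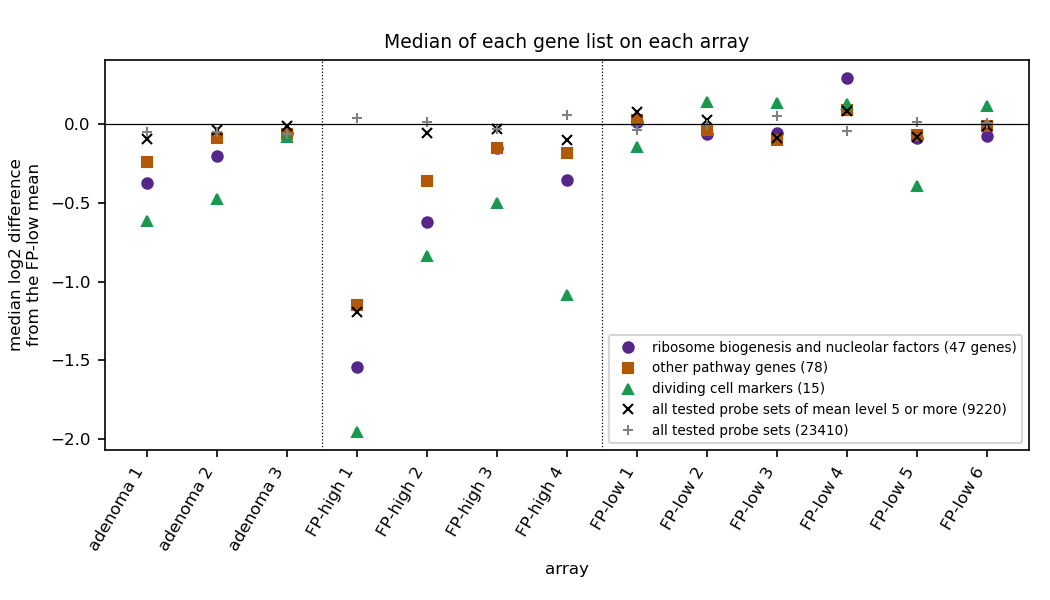
For each of the 13 arrays (adenoma, FP-high, FP-low from left to right), the median log2 level relative to the FP-low mean over the 47 members, the 78 other pathway genes, the 15 markers of dividing cells and the tested probe sets with a mean level of at least 5. FP-high replicate 1 has a median of -1.54 for the members and -1.20 for the bright probe sets, while FP-high replicate 2 has -0.62 and -0.06.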

How the data were processed

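RNA from crypts and adenomas was measured on 13 arrays. Glass capillaries of 40 µm took up the crypts and the RNA was amplified with NuGEN Ovation One-Direct, per the labels' protocols. Such amplification can distort levels. The authors deposited log2 levels for 35556 probe sets, made with Affymetrix Expression Console and Transcriptome Analysis Console, per the submitters' processing notes; their versions and the normalization were not given in the sources used here. Gene symbols came from the platform's annotation, and the 23410 with a symbol were tested (12146 had none, and 1621 had several).

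Group means were compared with limma 3.58.1 in R 4.3.3 (lmFit and eBayes, two-sided, Benjamini-Hochberg over all 23410), the 3 groups sharing 1 estimate of the spread. The script was tested on simulated data. Members, gene lists and tests were chosen with earlier results of these data known. Levels in every array are given for the 10 members with the smallest p in FP-high against FP-low, the 6 with the smallest p in adenoma against FP-low, called members and at least 1 member of each role group; the 4 other pathway genes with the smallest p in each of those comparisons are named. Comparisons share arrays. The groups share replicate numbers, and same-numbered FP-high and adenoma arrays deviated together (correlations of 0.233, 0.103 and 0.220, all over 0.1). A fit with the number as a block is therefore also given. That block covers all 13 arrays, FP-low included. Correlations of differently numbered arrays were not computed, so these values do not show that arrays are paired. For pairs with FP-low arrays the correlations ran from -0.361 to 0.178. Alternatives covered normalization, filters, probe set choice, spread, weights, block and each array left out. Promoter sequences are from RefSeq (GRCm38.p6). The number of arrays limits the precision.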

Additional observations from a re-analysis of the deposited data

Results flagged for a closer look

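Among 32 sets of values checked for an array far from the rest of its group, 5 had one, where chance alone gives about 5%, or 1 in 20. The mean of the 47 members relative to FP-low was 0.331 on FP-low replicate 4, against -0.12 to 0.003 on the other 5 FP-low arrays. Ddx10 was 8.02 on FP-low replicate 4, against 7.40 to 7.53 on the others. Rrp9 was 5.59 on FP-low replicate 3, against 4.74 to 4.94. On FP-high replicate 1, Ddx56 was 3.71, against 4.99 to 5.24 on the other FP-high arrays, and Rrp12 was 3.62, against 4.57 to 4.67.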

How the results depend on the processing

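Each comparison was repeated under 23 alternatives; one of them, quantile normalization with FP-high replicate 1 left out, was chosen after seeing the data. The median member difference kept its sign in all of them. When 1 array was left out, it ran from -0.86 to -0.37 in FP-high against FP-low, from -0.32 to -0.10 in adenoma against FP-low and from 0.08 to 0.73 in adenoma against FP-high. With the added alternative it was -0.33 in FP-high against FP-low, and 0.01 in adenoma against FP-high, where 23 members were lower and 24 higher.

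Leaving out 1 array gave 0 to 2 called members in FP-high against FP-low (2 without FP-high replicate 3), 0 in adenoma against FP-low and 0 to 2 in adenoma against FP-high. In adenoma against FP-high, 0 members were called after quantile normalization, with an intensity trend and robust spread, with only these 2 groups, with the replicate block and with the added alternative, and 2 with array weights (Wdr75 and Ddx10). Array weights gave 1 called member, Ddx56, in adenoma against FP-low. With those weights 3.71% of tested probe sets were called in adenoma against FP-low and 2.54% in adenoma against FP-high. The causes were not tested. With the replicate block the median member difference was -0.74 in FP-high against FP-low, -0.11 in adenoma against FP-low and 0.53 in adenoma against FP-high. Over all probe sets the calls ran from 0 to 136, from 37 to 868 (129 in the fit reported) and from 46 to 594 (179 in the fit reported) in the same 3 comparisons. Members near background limit the precision, with 4 of 47 at a mean level under 5.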
